A study of Rattus norvegicus with 10 samples.

Results

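The kinesin and cytoplasmic dynein genes encode the motors that carry cargo along microtubules, and they are described here in the rat supraoptic nucleus (SON), a group of magnocellular neurones in the hypothalamus. The animals were Wistar Han rats. They were chosen by symbol in the authors' deposited table: every gene whose name begins with Kif and a digit or c, Klc and a digit, Dync1 or Dync2, Dynl, or Dctn and a digit. This gave 64 of 32402 listed genes, of which 45 were kinesin genes and 19 were dynein or dynactin genes. The rule used no measured value. Cages of rats were allotted at random either to free drinking water (euhydrated) or to removal of water for 72 h (dehydrated), and a 1 mm corer was used to take the left and right SON out of 12 frozen coronal slices. The labels give no age, and no genotype or agent other than the strain and the removal of water. Polyadenylated RNA was sequenced from 5 samples per group, and each library held 24268398 to 28491926 counts assigned to genes. Whether the samples came from different animals is not stated, and the spread that the p-values rest on may therefore be technical. The cage of each sample is not among the labels used here either. Samples from the same cage may not be independent, and the test treats all libraries as independent.

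Motors of the kinesin superfamily mostly walk towards the plus ends of microtubules, which in axons point to the terminal, while cytoplasmic dynein 1 walks to the minus ends and needs dynactin to do so over long distances. Magnocellular neurones send their axons to the posterior pituitary, and the neurosecretory vesicles that hold vasopressin and oxytocin are carried down these axons on microtubules. Other kinesins build the mitotic spindle, shorten microtubules or work in cilia.

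The punches carried the marks of magnocellular neurones. All 14 markers of these cells were tested, and 7 of them rose and 0 fell, where 7.79% of all genes tested rose. Those that rose were Creb3l1, Caprin2, Pdyn, Scg2, Pam, Nos1 and Pcsk1. Avp, Oxt, Sim1, Otp, Pou3f2, Gal and Slc17a6 were not called in either direction. The mean level of the 14 was 7.37 to 7.63 log2 CPM (CPM, counts scaled to a common library total with TMM factors) in euhydrated and 8.02 to 8.30 in dehydrated libraries. This mean includes the genes that rose, and whether the share of these cells differed was not tested. The 64 motor genes together held 1.08% to 1.12% of a library's counts in the euhydrated group and 1.09% to 1.11% in the dehydrated group, ranges that overlapped. In bulk tissue, fewer cells of a type and less RNA per cell cannot be told apart, and this holds for every difference given here.

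Most motor genes differed little between the groups. Of 60 motor genes with enough counts to be tested, 4 rose, 2 fell and 54 did not pass the threshold, an edgeR adjusted p of 0.05 over all genes tested. That is 10% of the motor genes, while 12.7% of all genes tested passed, 7.79% higher and 4.9% lower. The share of motor genes called was thus no larger than that of all genes. Before adjustment, the edgeR p was under 0.05 for 16 of the 60 motor genes and for 4046 of all 15311 genes tested. The unadjusted counts given below for each family stand beside that share. The median log2 fold change (dehydrated over euhydrated) was 0.0033 over the motor genes and -0.0058 over all genes tested, and the median size without sign was 0.0889 and 0.0913. Kif5c, Dync1li1, Dynlt3 and Kif21a rose, and Kif26b and Kif19 fell. With library totals in place of TMM, 3 rose and 3 fell: Kif21a no longer passed and Kifc2 fell. That scaling moved the median of all genes from -0.0058 to -0.033 and their split from 1192 higher and 750 lower to 904 higher and 1173 lower. In 8 of the 13 families the edgeR test called no gene; in these, DESeq2 and limma-voom both called Kifc2 and no other gene. The groups did not overlap for 5 motor genes with higher and 2 with lower values in dehydrated libraries, against 6.9% and 3.97% of all genes tested (10.9% in both directions). The remaining members were too low to test: Kif14 had 39 counts over all 10 libraries, Kif28p 9, and Kif2b and Kif12 had 3 each.

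The precision of the comparison followed the level. For the 33 motor genes with a mean of at least 50 CPM, the standard error of the log2 fold change had a median of 0.033, and 4 of them passed. For the 16 below 5 CPM, 8 of them mitotic kinesins, it had a median of 0.207 and 0 passed, so small differences were not detectable among them. In simulated data 16% of 1.1-fold and 84% of 1.2-fold changes of well-counted genes were called. There only 50 genes changed at each fold tried, while 1942 genes passed in the data themselves. The adjusted threshold was therefore stricter in the simulation, and its rates may be lower than those for the data. A well-counted gene that did not pass may still differ by a small fold.

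**Figure D1:**
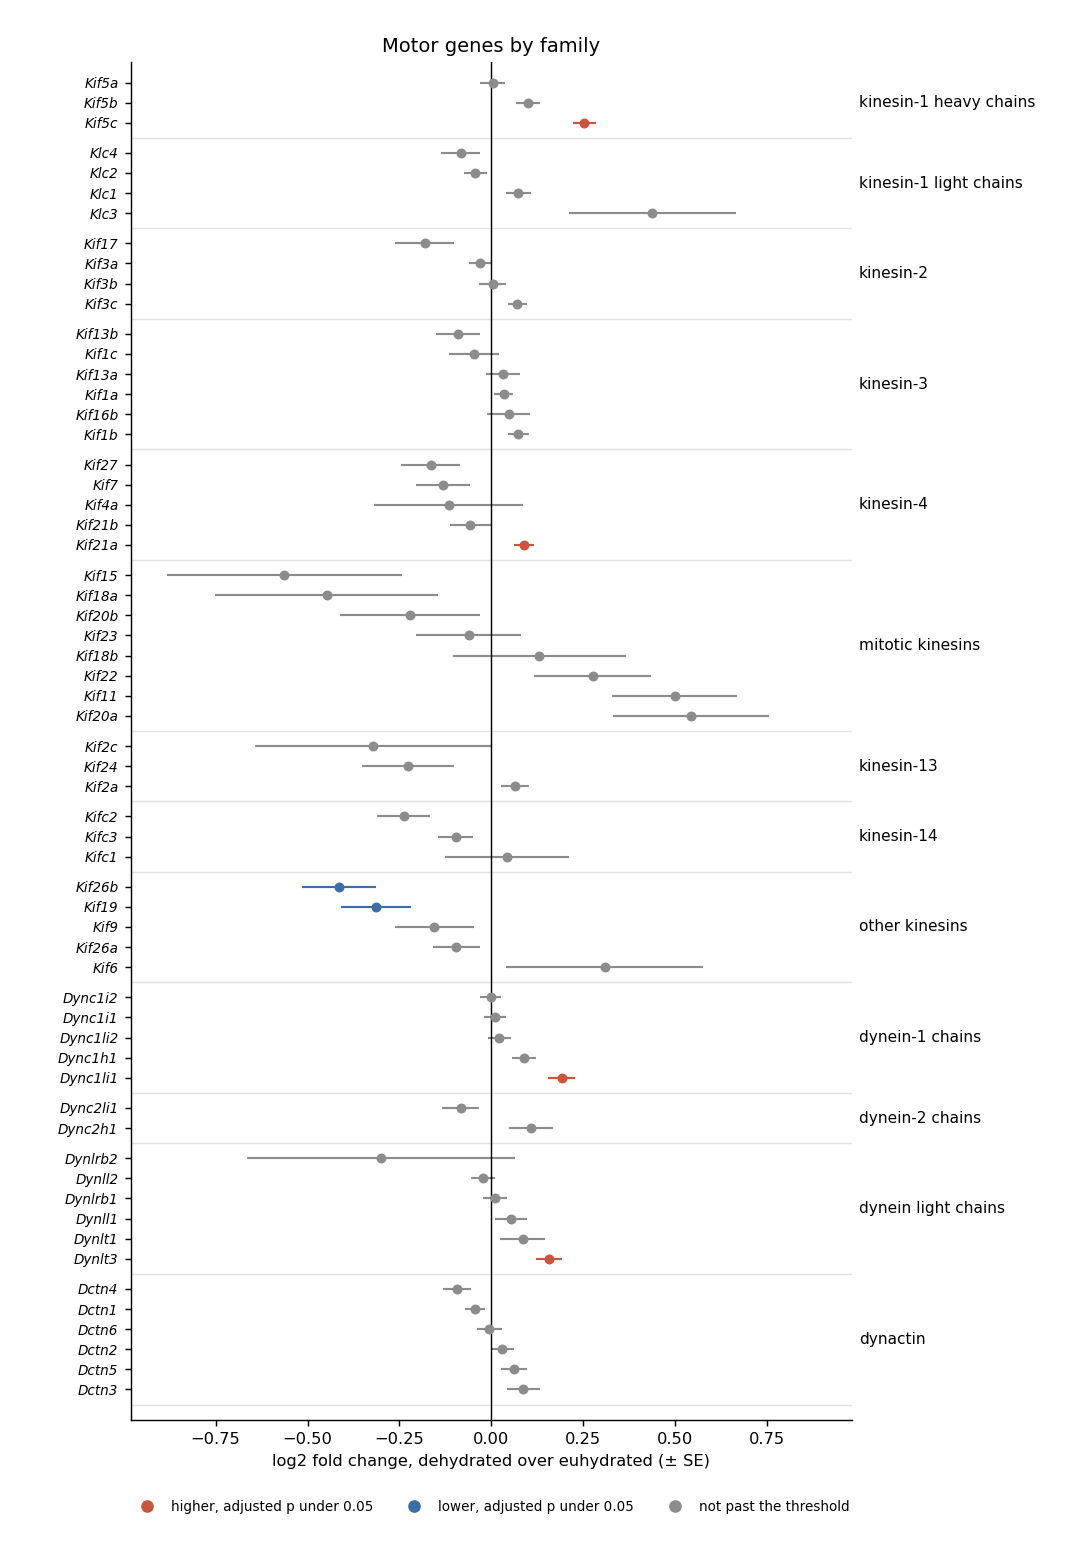
Log2 fold change (dehydrated over euhydrated, x axis) of the 60 motor genes tested, grouped by family, with bars of 1 standard error; red and blue points passed an edgeR adjusted p of 0.05. Most points lie close to 0, Kif5c, Dync1li1, Dynlt3 and Kif21a lie to the right with short bars, and most mitotic kinesins have wide bars.

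Kinesin-1 is the main motor of fast transport to the axon terminal, a pair of heavy chains that walk and a pair of light chains that bind cargo. Among the heavy chain genes Kif5c rose, while Kif5a and Kif5b did not pass. Kif5c (ENSRNOG00000004680), a heavy chain enriched in neurones, stood at 636, 617, 601, 635 and 604 CPM in euhydrated libraries 1 to 5 and at 740, 696, 748, 765 and 736 CPM in the dehydrated libraries 1 to 5. Every dehydrated library lay above every euhydrated library. The mean went from 618.5 ± 16.5 to 737.2 ± 25.4 CPM (SD, n = 5 per group), a 1.19-fold rise with a log2 fold change of 0.25 with an SE of 0.03 (edgeR adjusted p = 4.86e-05). It had the smallest adjusted p of the motor genes and passed under all 22 alternatives run for it (4.54e-13 to 0.00468). The RefSeq spans of Kif5c, Kif5b and Kif21a each overlap an unnamed locus, so some of their reads cannot be assigned with certainty.

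Kif5a, the heavy chain restricted to neurones, had 1537, 1583, 1470, 1512 and 1433 CPM in the euhydrated and 1538, 1551, 1470, 1548 and 1443 CPM in the dehydrated libraries. The groups overlapped over nearly their whole range. Its means were 1507 ± 58.3 and 1510.0 ± 49.9 CPM, and its log2 fold change was 0.003 ± 0.033 (SE; edgeR adjusted p = 0.966), with a sign that turned under 8 of the 22 alternatives. Kif5b, the heavy chain made in most cell types, had 255.2 ± 11.7 CPM in the euhydrated and 273.3 ± 6.03 CPM in the dehydrated libraries. Its log2 fold change was 0.10 ± 0.03, short of the threshold (edgeR adjusted p = 0.0614). It passed without euhydrated 5, the euhydrated library with the most Kif5b (0.0136), with DESeq2 (0.049) and with a covariate for oligodendrocyte markers (0.0116).

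**Figure D2:**
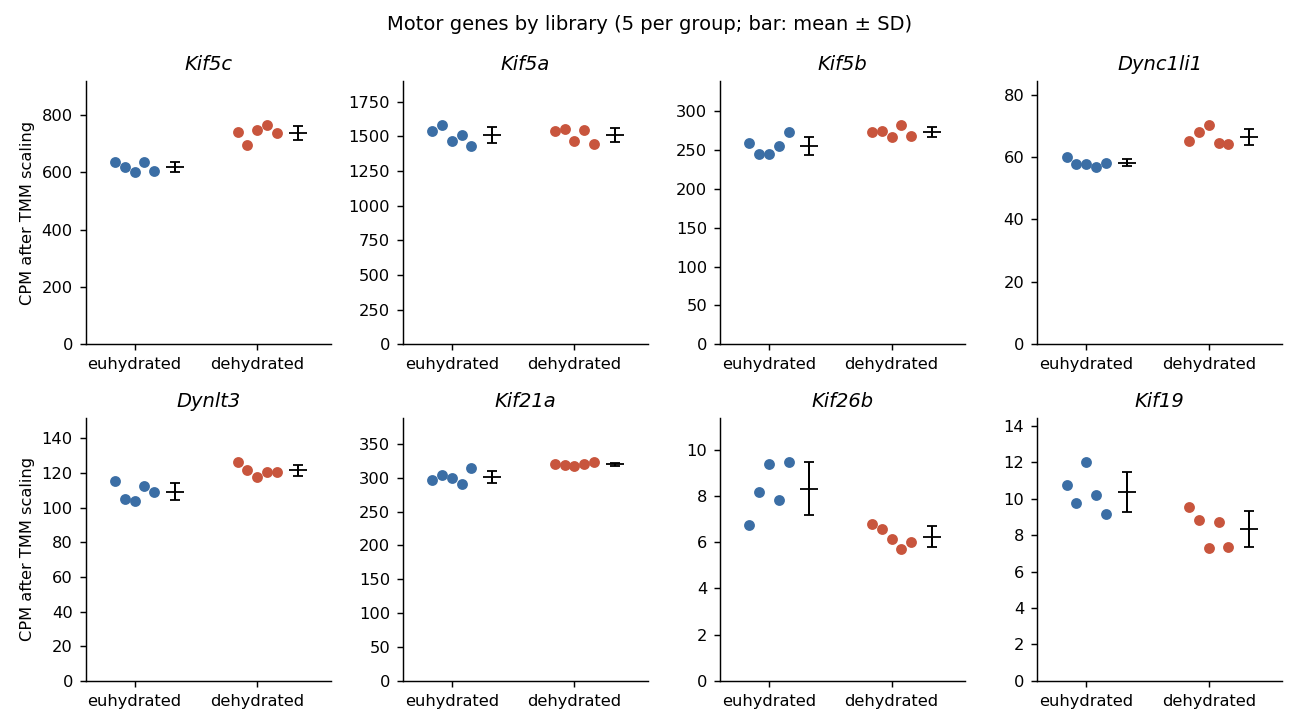
CPM after TMM scaling (y axis, from 0) of 8 motor genes in each of the 5 euhydrated (blue) and 5 dehydrated (red) libraries, with the mean ± SD beside the points. The dehydrated points of Kif5c, Dync1li1, Dynlt3 and Kif21a all lie above the euhydrated ones, those of Kif5a lie level, and those of Kif26b and Kif19 lie lower with some overlap.

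The make-up of the heavy chain transcripts shifted with these values. Of the counts of the 3 heavy chain genes, Kif5c held 26.2%, 25.2%, 26.0%, 26.4% and 26.2% in euhydrated libraries 1 to 5 and 29.0%, 27.6%, 30.1%, 29.5% and 30.1% in dehydrated libraries 1 to 5. The groups did not overlap. Kif5a held 63.3% ± 0.983 (SD, n = 5) and then 59.9% ± 1.03, again without overlap, while Kif5b held 10.7% ± 0.660 and 10.8% ± 0.111. These shares follow from the same counts and were not tested. Longer transcripts give more counts, so the shares show the shift between groups and not the ratio of transcripts.

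**Figure D3:**
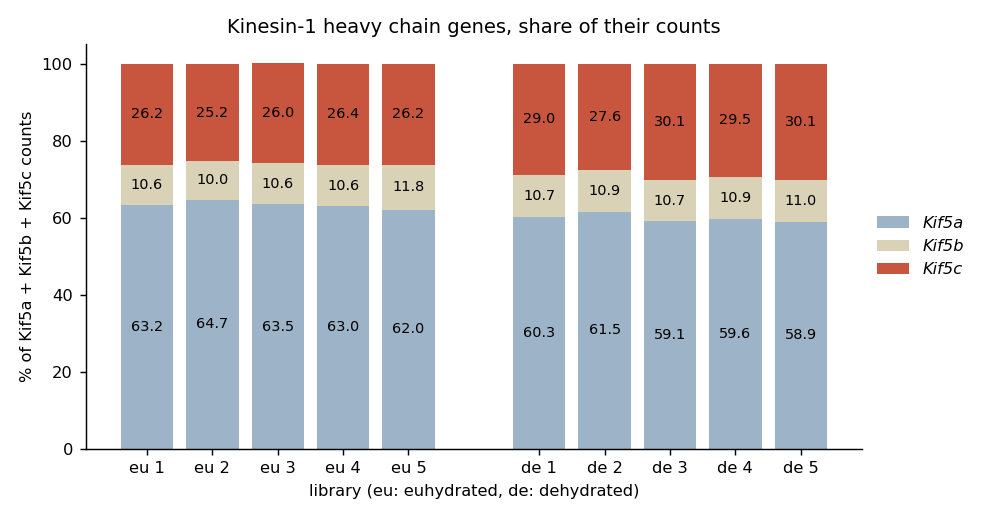
Share of the counts of Kif5a, Kif5b and Kif5c held by each gene (stacked bars, y axis in percent) in each of the 5 euhydrated (eu) and 5 dehydrated (de) libraries. The Kif5c share is 25.2% to 26.4% in euhydrated and 27.6% to 30.1% in dehydrated libraries, and the Kif5a share is lower in the latter.

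Of the 4 light chain genes 0 passed, and 1 had an unadjusted p under 0.05. Klc1, the neurone-enriched light chain, had 728.1 ± 28.7 CPM in the euhydrated and 765.9 ± 27.7 CPM in the dehydrated libraries, a log2 fold change of 0.07 with an SE of 0.03 (edgeR adjusted p = 0.18). The other 3 light chain genes had log2 fold changes between -0.08 and 0.44, the last for Klc3, which had close to 1 CPM.

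Promoters of the motor genes were searched for 3 motifs tied to activity and stress: TGACGTCA, the full cyclic AMP response element (CRE), TGACTCA, the AP-1 element, and TGATGCAA, an element bound by Atf4. Both strands of the 250 bases before the RefSeq start (build GRCr8) were read, and 49 of the 64 members had an entry. Members without an entry, among them Kif5a and the called genes Dynlt3 and Kif19, were not searched. A CRE was found in 5 of these 49 windows, 10.2%, against 1.59% of all 33469 windows in the table, 1.89% of those of protein-coding genes and 2.77% of those of genes tested here. The 5 were those of Kif5c, Klc1, Kif17, Kif15 and Dctn3. AP-1 elements were found in 2 of 49 windows (4.08%, against 4.05% of all and 3.06% of those of genes tested), those of Kif21a and Klc4. The Atf4 element was found in 0 (0.693% of all and 0.488% of those of genes tested). The window of Kif26b, which fell, held none of the 3 motifs. Of the 5 members with a CRE, Kif5c rose and the other 4 did not pass. A match is a run of letters and not a measured binding site.

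The windows of the kinesin-1 genes Kif5c, Klc1 and Kif5b are shown for the contrast between a gene that rose and its relatives that did not pass, and those of Dync1li1 and Kif21a because these genes rose too. No window was available for the heavy chain gene Kif5a or for Dynlt3, which also rose. Capitals mark a CRE or AP-1 element. In Kif5c the CRE begins 42 bases before the start (chr3:54441057-54441306, plus strand), and in Klc1 75 bases before it (chr6:136644350-136644599, plus strand). The Kif21a window (chr7:124058541-124058790, minus strand) holds the AP-1 element on the opposite strand, 23 bases before the start. The windows of Kif5b (chr17:56185136-56185385) and Dync1li1 (chr8:123254720-123254969), both on the plus strand, hold none of the 3 motifs.
Kif5c: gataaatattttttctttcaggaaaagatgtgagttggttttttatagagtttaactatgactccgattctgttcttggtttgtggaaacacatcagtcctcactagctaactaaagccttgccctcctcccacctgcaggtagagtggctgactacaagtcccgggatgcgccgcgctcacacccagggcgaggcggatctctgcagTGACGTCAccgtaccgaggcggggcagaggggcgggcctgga
Klc1: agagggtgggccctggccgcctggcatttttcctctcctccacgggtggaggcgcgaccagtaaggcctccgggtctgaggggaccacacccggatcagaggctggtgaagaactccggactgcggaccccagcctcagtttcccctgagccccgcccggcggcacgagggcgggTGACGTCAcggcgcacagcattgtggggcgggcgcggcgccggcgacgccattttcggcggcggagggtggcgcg
Kif5b: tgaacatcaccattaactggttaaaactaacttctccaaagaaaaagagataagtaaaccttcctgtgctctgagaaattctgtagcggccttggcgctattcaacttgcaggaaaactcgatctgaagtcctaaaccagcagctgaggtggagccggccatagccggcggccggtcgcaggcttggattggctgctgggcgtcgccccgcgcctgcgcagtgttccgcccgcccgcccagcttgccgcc
Dync1li1: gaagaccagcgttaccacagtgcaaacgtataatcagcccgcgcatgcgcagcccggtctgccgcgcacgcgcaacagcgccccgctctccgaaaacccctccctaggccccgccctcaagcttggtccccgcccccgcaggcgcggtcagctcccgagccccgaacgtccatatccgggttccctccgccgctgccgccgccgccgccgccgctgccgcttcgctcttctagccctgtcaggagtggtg
Kif21a: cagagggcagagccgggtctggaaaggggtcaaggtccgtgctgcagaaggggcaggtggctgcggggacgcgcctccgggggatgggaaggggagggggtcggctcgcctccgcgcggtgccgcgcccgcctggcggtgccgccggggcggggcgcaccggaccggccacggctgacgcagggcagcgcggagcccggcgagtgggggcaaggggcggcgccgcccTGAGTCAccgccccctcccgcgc

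Kinesin-2 motors carry vesicles in axons and dendrites and build cilia, and kinesin-3 motors are the fast carriers of synaptic vesicle precursors and dense-core vesicles. The edgeR test called 0 of 4 and 0 of 6 genes tested, with 2 and 1 at an unadjusted p under 0.05. Kif3c, the kinesin-2 gene with the most counts, had 219.2 ± 4.23 CPM in the euhydrated and 230.1 ± 3.91 CPM in the dehydrated libraries (log2 fold change 0.07 ± 0.03, SE; edgeR adjusted p = 0.094). Log2 fold changes of the kinesin-2 genes ran from -0.18 to 0.07. Kif1a, a motor of dense-core and synaptic vesicle precursors, had 1243, 1257, 1258, 1253 and 1280 CPM in the euhydrated and 1305, 1323, 1270, 1265 and 1272 CPM in the dehydrated libraries. The groups overlapped, and its log2 fold change was 0.03 ± 0.03 (edgeR adjusted p = 0.456). The spread of Kif1a between libraries was small, 13.3 and 25.5 CPM (SD), at means of 1258 and 1287 CPM. All 6 kinesin-3 genes tested had log2 fold changes between -0.09 and 0.07.

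Kinesin-4 genes act on the growth of microtubules and on cilia, and 1 of 5 passed. Kif21a (ENSRNOG00000014844), which slows microtubule growth at the cell cortex and walks in axons, had 297, 303, 299.1, 290 and 315 CPM in the euhydrated and 320, 319, 318, 320 and 324 CPM in the dehydrated libraries. The groups did not overlap, but the highest euhydrated library, 315 CPM, lay close to the lowest dehydrated one, 318 CPM. The means were 300.9 ± 9.04 and 320.1 ± 2.22 CPM (SD, n = 5), a 1.06-fold rise (log2 fold change 0.09 ± 0.03, SE; edgeR adjusted p = 0.0401). This call was lost under 15 of 22 alternatives, with adjusted p of up to 0.236. Among these were the fits without euhydrated 1, 2, 3 or 4 (0.0922, 0.0599, 0.0707 and 0.0937) and without dehydrated 1, 2, 3, 4 or 5 (0.0665, 0.0635, 0.065, 0.0622 and 0.0845). Scaling by library totals also ended it (0.156). Kif27, a gene of motile cilia, had 7.55, 6.58, 7.18, 6.47 and 6.88 CPM in the euhydrated and 6.44, 5.68, 6.25, 6.28 and 6.28 CPM in the dehydrated libraries. The dehydrated values were all lower, by little, and the log2 fold change of -0.16 ± 0.08 did not pass (edgeR adjusted p = 0.208).

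Of 5 kinesins outside these families 2 fell, Kif26b and Kif19. Kif26b (ENSRNOG00000028624), an atypical kinesin tied to Wnt5a signalling and cell adhesion, had 6.76, 8.16, 9.38, 7.84 and 9.49 CPM in the euhydrated and 6.81, 6.58, 6.13, 5.69 and 6.0 CPM in the dehydrated libraries. The groups overlapped by 1 library, since euhydrated 1 lay just under dehydrated 1. The mean went from 8.33 ± 1.14 to 6.24 ± 0.450 CPM (SD, n = 5), 1.33-fold lower (log2 fold change -0.41 ± 0.10, SE; edgeR adjusted p = 0.0129). Its relative Kif26a had 20.2 ± 1.48 and 18.9 ± 1.2 CPM (log2 fold change -0.09 ± 0.06, edgeR adjusted p = 0.371), with the opposite sign under the cilia covariate (0.05).

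Kif19 (ENSRNOG00000003105), a motor that shortens microtubules and sets the length of motile cilia, had 10.8, 9.73, 12.0, 10.2 and 9.17 CPM in the euhydrated and 9.54, 8.84, 7.28, 8.72 and 7.36 CPM in the dehydrated libraries. Dehydrated 1 lay above euhydrated 5, so the groups overlapped. The means were 10.4 ± 1.1 and 8.35 ± 0.989 CPM, 1.24-fold lower (log2 fold change -0.31 ± 0.10, SE; edgeR adjusted p = 0.0418). The call was lost without euhydrated 1, 3 or 4 (0.0842, 0.111 and 0.0705) or dehydrated 2, 3, 4 or 5 (0.0531, 0.106, 0.0536 and 0.0972). In the RefSeq table the span of Kif19 overlaps that of Btbd17, and Kif26b spans several unnamed loci, so reads there cannot be assigned with certainty.

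Markers of ependymal and motile cilia were read beside these genes. Of 15 such markers tested 2 fell, 1 rose and 12 did not pass: the log2 fold changes of the axonemal dynein genes Dnah9 and Dnai1 were -0.41 and -0.42 (edgeR adjusted p = 0.00159 and 0.0339), and Tekt4 had 0.68 (0.0471). The 17 markers matched summed to 111 to 123.7 CPM in the euhydrated and 103.5 to 110.7 CPM in the dehydrated libraries, ranges that did not overlap, and Rsph4a was at 0 in all libraries. Much of the lower sum was Dnah9, at 29.95 ± 2.63 and 22.5 ± 2.24 CPM, while Hydin (12.0 and 11.9 CPM) and Rarres2 (32.7 and 33.9 CPM) did not pass. With the mean level of these markers as a covariate, Kif26b no longer passed (log2 fold change -0.46 ± 0.14, edgeR adjusted p = 0.0829) while Kif19 did (-0.50 ± 0.12, 0.022). Neither fold was smaller than without the covariate. Erythrocyte markers summed to 1027 to 2059 CPM in the euhydrated and 590.6 to 1428 CPM in the dehydrated libraries, with 1 of 7 tested lower, Slc4a1, and 0 higher. With their mean level as a covariate, the calls of Kif26b (0.247), Kif19 (0.23), Dynlt3 (0.0576) and Kif21a (0.236) were lost and those of Kif5c and Dync1li1 were not. The log2 fold change of Kif26b was then -0.29 ± 0.13. Those of Kif19 (-0.29 ± 0.13), Dynlt3 (0.17 ± 0.05) and Kif21a (0.09 ± 0.04) stayed close to their values without the covariate, with wider errors. Both covariates differ between the groups and so carry part of the difference, and the part of these cells in the results was not tested.

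Mitotic kinesins build and separate the spindle in dividing cells, and 0 of 8 passed, with 2 at an unadjusted p under 0.05. They were low, with group means between 0.33 CPM for Kif18a and 3.10 CPM for Kif23. Kif11, which pushes spindle poles apart, had 1.08, 1.25, 0.98, 1.18 and 1.30 CPM in the euhydrated and 1.53, 1.71, 1.40, 1.52 and 2.04 CPM in the dehydrated libraries. The groups did not overlap, and the log2 fold change of 0.50 ± 0.17 missed the threshold (edgeR adjusted p = 0.0671, on 371 counts over all libraries). The RefSeq spans of Kif11, Kif27 and Kif20a overlap those of Ide, Kif27l1 and Cdc23, in that order. Those of Klc1 (Xrcc3), Klc3 (Ercc2), Kif3c (Asxl2), Kif2a (Dimt1), Dctn1 (Wdr54) and Dctn4 (Smim3) also overlap the gene in brackets. Reads of all these genes too cannot be assigned with certainty. Kif20a, which acts in cytokinesis, had means of 0.918 and 1.34 CPM (log2 fold change 0.54 ± 0.21, edgeR adjusted p = 0.109). It passed without euhydrated 2 (0.0426, at 0.71). Kif23, the member of this family with the most counts, had 3.10 ± 0.281 and 2.97 ± 0.581 CPM (log2 fold change -0.06 ± 0.14, edgeR adjusted p = 0.838), with the opposite sign without dehydrated 2. Log2 fold changes of the family ran from -0.56 to 0.54, in both directions. Of 22 proliferation markers tested 1 rose, Mki67 (1.34-fold, edgeR adjusted p = 0.0281), and 7 had an unadjusted p under 0.05. An unadjusted p under 0.05 was found for 4046 of all 15311 genes tested. Of the 22, 20 had a positive log2 fold change, 90.9% against 48.2% of all genes tested, with a median of 0.2571. The part of dividing cells in the values of the mitotic kinesins was not tested. The list summed to 68.4 to 74.5 CPM in the euhydrated and 68.95 to 83.4 CPM in the dehydrated libraries.

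Kinesin-13 genes, which shorten microtubules, and kinesin-14 genes, whose motors walk to the minus end, also gave 0 of 3 each, with 0 and 1 at an unadjusted p under 0.05. Kif2a, the main kinesin-13 gene of neurones, had 57.0 ± 2.19 and 59.6 ± 1.74 CPM (log2 fold change 0.07 ± 0.04, edgeR adjusted p = 0.293). Kifc2, a minus-end motor of neurones, was the nearest of the uncalled genes to the threshold. It had 217, 222, 224, 222 and 176 CPM in the euhydrated and 204, 168, 177, 172 and 178 CPM in the dehydrated libraries. Euhydrated 5 lay with the dehydrated libraries and dehydrated 1 stood between the groups. The span of Kifc2 overlaps that of Foxh1. The log2 fold change was -0.24 ± 0.07 (SE; edgeR adjusted p = 0.053). Without euhydrated 5 it passed at -0.30 ± 0.05 (0.00101), and without dehydrated 1 at -0.29 ± 0.06 (0.0144). It also passed with DESeq2 (0.00546), limma-voom (0.0355), library totals (0.0378), the filter at 1 CPM (0.0474) and the oligodendrocyte and cilia covariates (0.00179 and 0.00234).

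Cytoplasmic dynein 1 is built on the heavy chain Dync1h1, with intermediate chains that hold dynactin and light intermediate chains that hold the adaptors of cargo. Of its 5 genes Dync1li1 rose and the other 4 did not pass. Dync1li1 (ENSRNOG00000010434), for light intermediate chain 1, had 60.0, 57.8, 57.8, 56.8 and 58.2 CPM in the euhydrated and 65.0, 67.9, 70.3, 64.4 and 64.1 CPM in the dehydrated libraries. Every dehydrated library lay above every euhydrated library. The mean went from 58.1 ± 1.16 to 66.4 ± 2.66 CPM (SD, n = 5), a 1.14-fold rise (log2 fold change 0.19 ± 0.04, SE; edgeR adjusted p = 0.00258). It passed under all 22 alternatives run for it (6.55e-05 to 0.0349). The other light intermediate chain gene, Dync1li2, had 291.5 ± 9.55 and 295.9 ± 8.30 CPM (log2 fold change 0.02 ± 0.03, edgeR adjusted p = 0.707; -0.005 with library totals). Of the counts of these 2 genes Dync1li1 held 16.6% ± 0.557 in euhydrated and 18.3% ± 0.952 in dehydrated libraries, without overlap and with no test. The margin was narrow, 17.2% in the highest euhydrated against 17.3% in the lowest dehydrated library. Dync1h1 had 530.6 ± 17.4 and 564.2 ± 22.5 CPM (log2 fold change 0.09 ± 0.03, edgeR adjusted p = 0.0926).

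Dynein light chains bind the intermediate chains and other partners, and 1 of 6 genes rose. Dynlt3 (ENSRNOG00000003611), for a light chain of the Tctex type, had 115, 105, 104, 112 and 109 CPM in the euhydrated and 127, 122, 118, 121 and 121 CPM in the dehydrated libraries. The lowest dehydrated library, 118 CPM, lay above the highest euhydrated one, 115 CPM. The means were 109.1 ± 4.92 and 121.5 ± 3.24 CPM, a 1.11-fold rise (log2 fold change 0.16 ± 0.04, SE; edgeR adjusted p = 0.0083). It kept its call without each library in turn and lost it in the fits with erythrocyte markers (log2 fold change 0.17 ± 0.05, 0.0576) and cilia markers (0.11 ± 0.05, 0.201). Dynll2, for a light chain of the LC8 type, had 620.2 ± 24.2 and 610.5 ± 21.4 CPM (log2 fold change -0.02 ± 0.03, edgeR adjusted p = 0.724). Dynein 2, the motor of return transport inside cilia, had 0 of 2 genes past the threshold and 0 at an unadjusted p under 0.05, with Dync2h1 at 39.6 ± 2.92 and 42.7 ± 3.28 CPM (log2 fold change 0.11 ± 0.06, edgeR adjusted p = 0.268).

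Dynactin, the partner complex of dynein, gave 0 of 6, with 1 at an unadjusted p under 0.05, and its log2 fold changes lay between -0.09 and 0.09. Dctn1, the large subunit that grips the microtubule, had 558, 576, 552, 543 and 543 CPM in the euhydrated and 534, 543, 551, 530.1 and 530.3 CPM in the dehydrated libraries. The groups overlapped (log2 fold change -0.04 ± 0.03, edgeR adjusted p = 0.32). Dctn4, of the pointed end of the complex, had 60.9, 60.4, 59.7, 61.4 and 64.6 CPM in the euhydrated and 59.6, 58.0, 58.6, 53.95 and 57.7 CPM in the dehydrated libraries. The groups did not overlap, by the width of 59.7 against 59.6 CPM, and the log2 fold change of -0.09 ± 0.04 did not pass (edgeR adjusted p = 0.128).

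The motors work with adaptors and regulators, of which a list of 58 was drawn up; 55 were matched and 54 tested. In it 3 genes rose, 3 fell and 48 did not pass, 11.1% against 12.7% of all genes tested, with a median log2 fold change of 0.0108 (2 higher and 6 lower with library totals). Ndel1, which works with Lis1 (Pafah1b1) on dynein, had 104, 102, 106, 106 and 99.3 CPM in the euhydrated and 122, 114, 120, 115 and 122 CPM in the dehydrated libraries. The groups did not overlap, and it rose 1.147-fold (log2 fold change 0.20 ± 0.03, SE; edgeR adjusted p = 0.000746). Clstn3, of the calsyntenin family, whose founding member docks vesicles to kinesin light chains, had 524.5 ± 12.9 CPM in the euhydrated group and was 1.14-fold higher, 596.1 ± 22.6 CPM, in the dehydrated group (edgeR adjusted p = 0.000917). Capza1, for a capping protein that also sits on dynactin, rose 1.08-fold (edgeR adjusted p = 0.0452), a call lost in 13 of 22 alternatives, 8 of them fits without 1 library. In these Capza1 had an adjusted p of 0.116, 0.0573, 0.0935 and 0.0905 without euhydrated 1 to 4 and of 0.0508, 0.113, 0.0648 and 0.0996 without dehydrated 1, 3, 4 and 5.

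The genes that fell were Tctex1d2, Hap1 and Kifbp. Tctex1d2, for a light chain of dynein 2, went from 18.1 ± 1.08 to 15.0 ± 1.08 CPM (1.204-fold lower, edgeR adjusted p = 0.0117), without overlap, and lost its call with the erythrocyte covariate (0.192). Hap1, a huntingtin partner that links to dynactin and kinesin-1, went from 620.0 ± 36.4 to 550.5 ± 34.0 CPM (1.13-fold lower, edgeR adjusted p = 0.025). It lost its call without euhydrated 2 or 3 (0.0547 and 0.066) or dehydrated 1, 2 or 4 (0.0598, 0.0617 and 0.0527), and with the erythrocyte (0.0917) and cilia (0.241) covariates. Kifbp, which binds the motor domains of some kinesins and keeps them off microtubules, was 1.09-fold lower without overlap (115.5 ± 3.91 and 105.7 ± 3.47 CPM, edgeR adjusted p = 0.0201). It lost its call without euhydrated 1 or 4 (0.0606 and 0.0585) or dehydrated 1 (0.0523), and with the oligodendrocyte (0.0843) and cilia (0.27) covariates. Kifap3, the cargo-binding partner of kinesin-2, Pafah1b1 and Actr1a, the filament subunit of dynactin, did not pass, at log2 differences of 0.03, 0.06 and -0.02 in that order (edgeR adjusted p = 0.638, 0.192 and 0.627).

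The tracks that the motors walk on were described with a second list of 52 symbols. Of these 51 were matched, and because Agbl4 has separate Ensembl entries, 52 entries were tested. Of 52 tubulin and microtubule protein genes tested 13 rose, 3 fell and 36 did not pass, 30.8% against 12.7% of all genes tested, with a median log2 fold change of 0.037 against -0.0058 (12 higher and 5 lower with library totals). The list was chosen with earlier results known, and its share was not tested against that of other genes. With the erythrocyte covariate 7 rose and 0 fell, 13.5% against 5.12% of all genes tested. Tubb6, for a beta tubulin that is scarce in most adult neurones, had 12.8, 11.8, 10.0, 14.3 and 15.8 CPM in the euhydrated and 21.8, 23.1, 25.7, 22.2 and 23.7 CPM in the dehydrated libraries. The groups lay far apart, and it rose 1.80-fold (log2 fold change 0.85 ± 0.10, SE; edgeR adjusted p = 6.37e-05). Ttl, the ligase that puts the last tyrosine back on alpha tubulin, a mark read by motors, was 1.26-fold higher, with group means of 31.0 ± 1.09 and 39.0 ± 2.67 CPM (edgeR adjusted p = 0.000432). Dclk1, a doublecortin-like kinase that binds microtubules, was 1.23-fold higher (means 490.8 ± 27.4 and 601.6 ± 31.8 CPM, edgeR adjusted p = 0.000299). The beta tubulin gene Tubb2b rose 1.21-fold (edgeR adjusted p = 0.00113) and the neuronal Tubb3 1.14-fold, from 513.3 ± 19.4 to 582.4 ± 24.9 CPM (0.00255). For these 5 genes every dehydrated library lay above every euhydrated one. Mapt, for tau, had 771.9 ± 38.6 and 814.5 ± 18.7 CPM (log2 fold change 0.08 ± 0.03, edgeR adjusted p = 0.162).

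The 3 track genes that fell were Dcx, Tppp and Stmn4. Dcx, for doublecortin, went from 44.2 ± 4.65 to 37.5 ± 2.63 CPM (edgeR adjusted p = 0.0342). Its call was lost without euhydrated 2, 3 or 5 (0.0749, 0.0581 and 0.0657) or dehydrated 1, 2, 3 or 4 (0.0685, 0.0778, 0.0873 and 0.054). With the replicate block on numbers 1 and 2 (0.0507) and the erythrocyte (0.134), oligodendrocyte (0.118) and cilia (0.339) covariates, the Dcx call was lost in 11 of 22 alternatives in all. Tppp, a tubulin-binding protein best known from oligodendrocytes, went from 86.3 ± 5.38 to 73.4 ± 3.83 CPM, 1.18-fold lower and without overlap (edgeR adjusted p = 0.00398), a call lost with the erythrocyte covariate (0.116). Of 15 oligodendrocyte markers tested 2 fell, Cnp and Opalin, and 0 rose, and the list summed to 10540 to 15250 CPM in the euhydrated and 10060 to 12840 CPM in the dehydrated libraries. The part of these cells in the change of Tppp was not tested.

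**Figure D4:**
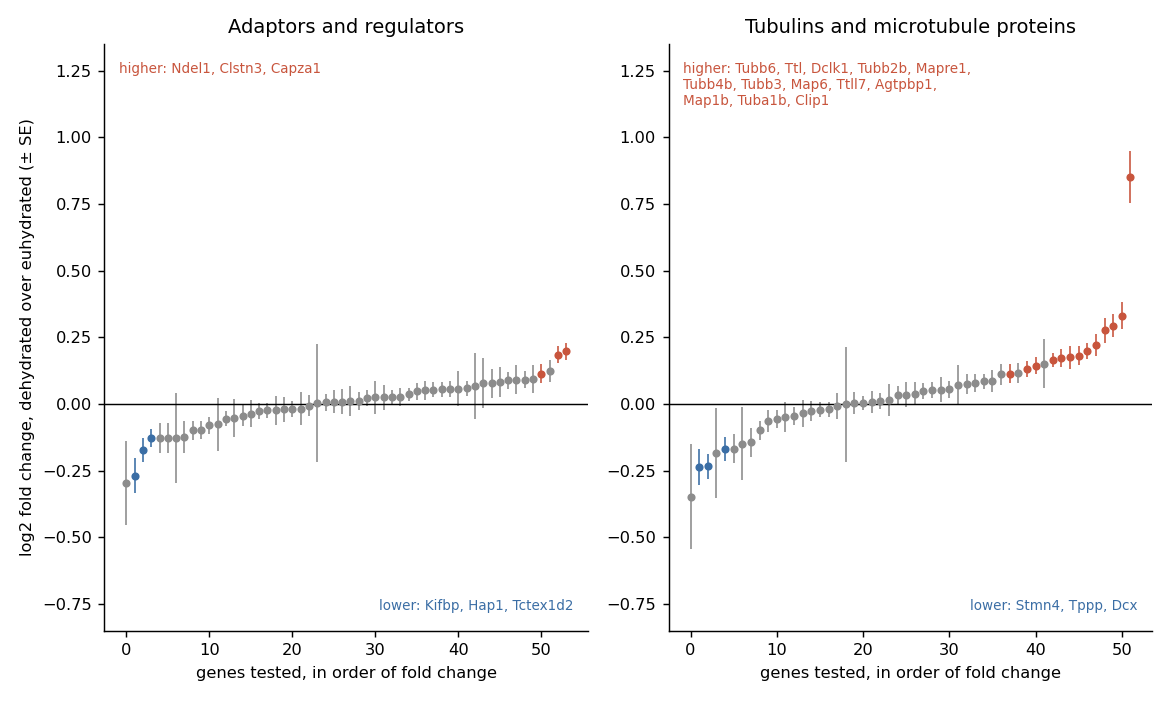
Log2 fold change (dehydrated over euhydrated, y axis) of the 54 adaptor and regulator genes (left) and 52 tubulin and microtubule protein genes (right) tested, in order of size, with bars of 1 standard error. Red and blue points, listed by name, passed an edgeR adjusted p of 0.05: 3 higher and 3 lower on the left, 13 higher and 3 lower on the right, with Tubb6 the highest point.

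The authors' deposited table, made with DESeq2, gave an adjusted p for 57 of the 64 motor genes and put 8 of them past 0.05, 5 higher and 3 lower. In the authors' deposited table the log2 fold change of Kif5c was 0.25 (adjusted p = 4.54e-13), Dync1li1 0.19 (6.55e-05), Dynlt3 0.15 (0.0014) and Kif21a 0.09 (0.0136). Kif26b had -0.42 (0.00309) and Kif19 -0.32 (0.0228) in the authors' deposited table. The 2 further genes there were Kifc2, with -0.24 (0.00546), and Kif5b, with 0.10 (0.049). Over all genes 2246 of 14613 with an adjusted p passed in the authors' deposited table.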

How the data were processed

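Polyadenylated RNA of SON punches was sequenced in 5 euhydrated and 5 dehydrated samples from stranded mRNA libraries, as the labels' protocols state. The deposited counts are whole reads for each Ensembl gene, not normalised by the authors. Per the submitters' processing notes, the tools were STAR and featureCounts, with CASAVA, FastQC and DESeq2 1.28.1. Which build, annotation and strand option the counting used is "not given in the sources used here", and genes that overlap or resemble each other are therefore uncertain. A second deposited table holds the authors' comparison: per the file headers, log2 fold changes with their errors, and p-values before and after adjustment, and 10 columns of normalised values that were not used. Gene symbols came from that table.

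Count columns were tied to samples by name; titles and descriptions number the samples of euhydrated columns 3 to 5 differently, and these were tied to the group alone. The column number names each library. Genes were kept with filterByExpr (15311 of 32402), scaled by TMM and tested with edgeR 4.0.16 (glmQLFit and glmQLFTest, robust, no covariate) in R 4.3.3, with Benjamini-Hochberg adjustment over all genes tested and 0.05 as the threshold. This is the edgeR adjusted p of the text. Adjusted p in brackets after it come from the same test under the setting named, except where DESeq2, limma-voom or the authors' table is named. Ranges over the alternatives include DESeq2 and limma-voom. The SE is the log2 fold change divided by the square root of the F statistic. Marker levels are mean log2 CPM with a prior count of 2. The test was checked on simulated data, with 50 well-counted genes changed at each fold. It called 16% of them at 1.1-fold, 84% at 1.2-fold and 100% at 1.5-fold and 2-fold. Of its calls 5.06% were false. Far fewer genes changed in the simulation than passed in the data, so these rates do not carry over directly. Promoter windows came from RefSeq (GRCr8), matched by symbol.

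The members, the gene lists, the motifs and the tests were chosen with earlier results of these data known. Named are all members past the threshold, the member of each family with the most counts, members whose groups do not overlap, up to 6 genes past the threshold of the adaptor and track lists, and Kifap3, Pafah1b1, Actr1a, Mapt and Tubb3; Kif5b, Kif20a, Dync1li2, Klc3, Stmn4 and marker genes were named after their values were seen. Alternatives were DESeq2 size factors, library totals, Avp and Oxt left out, 2 other filters, DESeq2 1.42.0, limma-voom (limma 3.58.1), replicate blocks, 3 marker covariates, a threshold of 0.01 and each library left out.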

Additional observations from a re-analysis of the deposited data

Results flagged for a closer look

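Among the 38 named motor, adaptor and track genes, both groups of 5 libraries were searched for a library far from the others, 76 searches in which chance alone flags about 1 in 20. The search found 4 such values. Kif3c stood at 226.6 CPM in euhydrated 1, above 216.4 to 218.2 CPM in the other euhydrated libraries. Kif27 stood at 5.68 CPM in dehydrated 2, below 6.25 to 6.44 CPM in the other dehydrated libraries. Kifc2 stood at 203.9 CPM in dehydrated 1, above 168.0 to 178.4 CPM in the other dehydrated libraries. In the euhydrated group of Kifc2 the distant library was euhydrated 5, at 176.1 CPM, below 216.7 to 224.1 CPM in the others.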

How the results depend on the processing

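Kif5c and Dync1li1 kept their direction and their call under all 22 alternatives run for each gene; the other 4 motor genes called kept their direction. The 6 motor genes called became 2 with the erythrocyte covariate and 3 at an adjusted p of 0.01, and 4 to 9 with 1 library left out. With the cilia covariate 5 were called. Of the 6 it kept 3, Kif5c, Dync1li1 and Kif19, and it added Kifc2 and Kifc3, both lower. Over all genes 1942 became 784 with the erythrocyte covariate, 866 with the cilia covariate and 891 at 0.01, and 1494 to 1756 with 1 library left out. The adaptor list went from 6 to 3 with the erythrocyte covariate, to 2 at 0.01 and to 4 to 6 with 1 library left out. The track list went from 16 to 7 with the erythrocyte covariate and to 14 to 17 with 1 library left out. The cause was not tested.

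Some log2 fold changes near 0, none past the threshold, turned sign. Kif5a had -0.024 with library totals, -0.003 with the oligodendrocyte covariate, -0.014 with the cilia covariate and -0.013 to 0.021 without 1 library. Kif23 had -0.158 to 0.035 without 1 library, the highest without dehydrated 2, Kif26a 0.052 and Actr1a 0.009 with the cilia covariate, and Dync1li2 -0.005 and Kifap3 -0.002 with library totals.

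Replicate numbers are shared between the groups but did not pair the samples: deviations of same-numbered libraries correlated at -0.068, 0.141, 0.016, 0.038 and -0.016, and only dehydrated 2 correlated best with its own number. A replicate block on numbers 1 and 2 of the labels called 5 motor genes and 1861 genes in all, and a block on column numbers 1 to 5 called 6 and 1956. Genes under 5 CPM are the least certain, since their errors are widest.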

Other observations

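Over all genes tested, the promoter windows that hold the motifs searched above were set beside the calls. Of 11055 genes tested with a promoter entry, 8.53% rose and 5.08% fell. Of the 306 with a full CRE, 45 rose and 10 fell, 14.7% and 3.27%, with a median log2 fold change of 0.023. Of the 338 with an AP-1 element, 48 rose and 9 fell, 14.2% and 2.66%. Of the 54 with the Atf4 element, 9 rose and 3 fell. These shares are a description and were not tested. Windows differ in base composition, and no binding was measured.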
